A study of Caenorhabditis elegans with 2 samples.

Results

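The mrp genes of the nematode Caenorhabditis elegans are 8 genes, mrp-1 to mrp-8, out of 19973 protein-coding genes in the annotation. All 8 were found in it by symbol. They were chosen by a measured value: mrp-4 carries the peak of highest signal in the main list of APTF-2 binding sites, and the other 7 are its relatives by name. The signal at mrp-4 is therefore a description of the gene that was picked, and no test is attached to it. APTF-2 is a transcription factor of the AP-2 family, and its sites were mapped by ChIP-seq, which precipitates sheared chromatin with an antibody and sequences it. The worms, strain RW12304, carried st12304[aptf-2::TY1::EGFP::3xFLAG] on chromosome IV, a CRISPR insertion at the endogenous gene, and the antibody was against GFP. Whole young adults of 61.5 h, grown from larvae synchronised by starvation after bleaching, gave 2 biological replicates of 1 group. There was no second genotype, stage or treatment, so no comparison between conditions is possible, and a site bound in few cells of a whole animal can be missed.

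The mrp genes encode ATP-binding cassette (ABC) transporters of subfamily C, membrane proteins that use ATP to move substrates such as drugs, glutathione conjugates, metals or lipids across membranes. In the worm mrp-4 is known for its part in the differentiation of gut granules, lysosome-related organelles of the intestine. Among its relatives, mrp-1 is known for resistance to heavy metals, mrp-5 for the export of heme from the intestine and mrp-7 for resistance to methylmercury. On assembly ce11 mrp-4 (WBGene00003410) lies on the plus strand of chromosome X, from 9884274 to 9889712. The genes mrp-1, mrp-2, mrp-3, mrp-5 and mrp-6 lie elsewhere on X, mrp-7 on V and mrp-8 on III. The mrp genes span from 5439 bp, at mrp-4, to 20052 bp, at mrp-8. An AP-2 protein binds DNA as a dimer, at GC-rich palindromes in other animals.

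The stretch of DNA under the strongest site is short and lies between genes. The peak at mrp-4 covered chrX:9883873-9884165 on assembly ce11, a width of 293 bp, and overlapped 0 annotated genes. Its sequence is shown whole because the results turn on it, read from the plus strand, which is also the strand of mrp-4. Capitals mark the 2 matches found to any of the 10 motifs searched, both to GAGAGA on the minus strand.

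mrp-4: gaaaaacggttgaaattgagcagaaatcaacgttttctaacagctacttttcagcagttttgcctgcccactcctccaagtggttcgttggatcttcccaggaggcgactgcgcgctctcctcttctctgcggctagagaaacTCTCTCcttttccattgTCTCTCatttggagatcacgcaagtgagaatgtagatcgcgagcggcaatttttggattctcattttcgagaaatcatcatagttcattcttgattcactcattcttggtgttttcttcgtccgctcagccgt

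The matches began 10 bp before the summit and 7 bp after it, at 9884016 and 9884033, so they stood on either side of the summit. GAGAGA occurred within 100 bp of 24.7% of the 892 main-list summits. It occurred in 14% of 29304 windows of the same length placed at the same distance from every protein-coding start. The AP-2 palindrome GCCNNNGGC was not found in the mrp-4 window, and it stood in 2.69% of summit windows and 0.853% of promoter windows. The E2F motif (TTTCCCGC, TTTCGCGC, TTTGCCGC or TTTGGCGC) was not found either (12.2% of summit windows, 3.62% of promoter windows). Nor was the SP1 motif GGGCGG (11.5% and 4.41%). The same held for ACTGATAA, a GATA site typical of intestinal genes (0.561% of summit windows, 2.18% of promoter windows). It also held for the shorter GATA motif, NGATAN with A or T first and A or G last (22.2% and 38.7%). The KLF motif CCACCC (6.84% and 3.98%) and the LAG-1 motif, ATGGGAA or GTGGGAA (10.7% and 6.32%), were not found. The PHA-4 motif was absent from these letters too (40.9% and 50.1%). It reads TNTTNNN, with the open positions limited to A or G, then G or T, A or G, and C or T. So was TCACGTGAC, a site known for HLH-30, which was absent from all 892 summit windows and found in 0.0921% of promoter windows. Of the 201 bp around the summit, 48.3% were G or C. The median was 45.3% over summit windows and 33.8% over promoter windows, and 96.2% of promoter windows had a lower share. The window had no similar copy elsewhere in the genome.

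Both replicates placed a peak at this promoter. The summit, the position of highest signal within a peak, lay 258 bp upstream of the mrp-4 start in replicate 1 and 246 bp upstream in replicate 2, so the summits were 12 bp apart. In the main list, made from both, it lay 248 bp upstream. The replicate peaks overlapped by 242 bp. Signal, the score of the authors' peak caller on a scale that is not stated, was 949.6 in the joint list, 446 for replicate 1 and 512 for replicate 2. Each was the highest of its list, of 892, 350 and 403 peaks. The next peaks had signals of 841, 436 and 413. Signals of different lists are not on a common scale, with medians of 103 in the main list, 78 in replicate 1 and 76.8 in replicate 2, and read depth is unknown, so the replicates' values are given side by side and not compared in size. The IDR score, a measure of whether a peak keeps its rank between paired lists that runs to 1000, was 1000 at mrp-4 in each list. It does not set mrp-4 apart, since 599 of the 892 main-list peaks (67.2%) had this score.

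**Figure D1:**
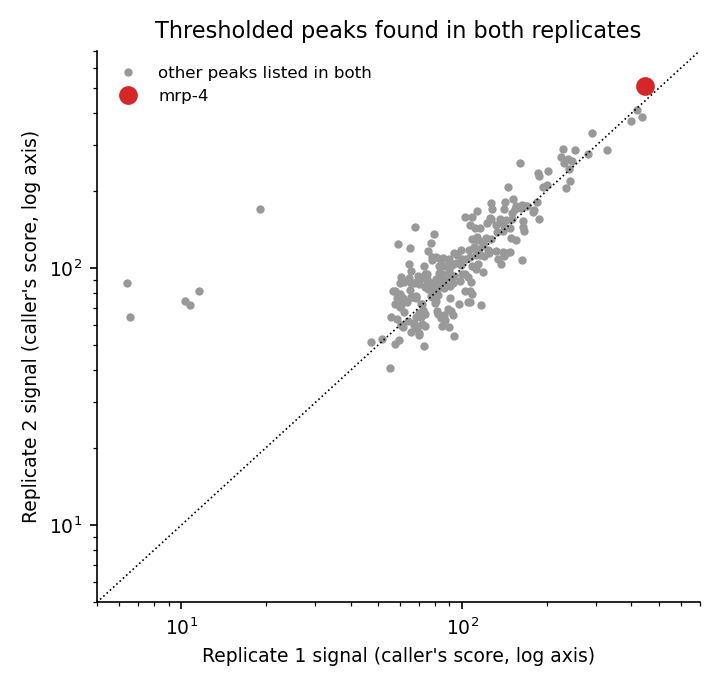
Signal in replicate 1 (horizontal) and replicate 2 (vertical) of each thresholded peak of replicate 1 that overlapped a thresholded peak of replicate 2, both in units of the caller's score on log axes; the dotted line marks equal values. The mrp-4 peak, in red at 446 and 512, is the highest in both directions.

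By the signals of both replicates, the gene most like mrp-4 among 214 others with a summit in both replicates' thresholded lists was Y32H12A.8, at a distance of 0.0965 on the log10 scale over 2 samples. Y69H2.7 and ubc-19, which has the name of a ubiquitin-conjugating enzyme, followed at 0.121 and share 1 summit, 94 and 133 bp upstream of their starts. Signals were 420 and 413 at Y32H12A.8 in replicates 1 and 2, and 436 and 388 at the shared summit.

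The gene upstream of mrp-4 is glo-1, which encodes a Rab GTPase known to be required for gut granules. Both genes are transcribed away from the summit, glo-1 on the minus strand with its start at 9882212 and mrp-4 on the plus strand with its start at 9884274, 2062 bp apart. The summit was 1814 bp from the glo-1 start, against 248 bp from that of mrp-4. It therefore fell outside the promoter window used for calls, which reached 1000 bp upstream of a protein-coding start and 200 bp downstream, for glo-1 and inside it for mrp-4. In the glo-1 window itself 3 peaks of the much longer ranked list were found, none of them in the main list, with a highest signal of 28.3 (in the 48.2nd percentile of genes). The mrp-4 peak stood alone: from 5000 bp upstream to 3000 bp downstream of the mrp-4 start the ranked list held 12 further peaks, the highest 61.7, at 2704 bp downstream in a coding exon of mrp-4. The nearest lay 1175 bp upstream with a signal of 7.25 and 1318 bp downstream with a signal of 35.9, so the promoter window held a single peak. The replicates' own ranked lists held nearer ones, also outside the window. They lay 650 bp downstream in replicate 1 (18.1) and 352 bp downstream in replicate 2 (19.6).

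**Figure D2:**
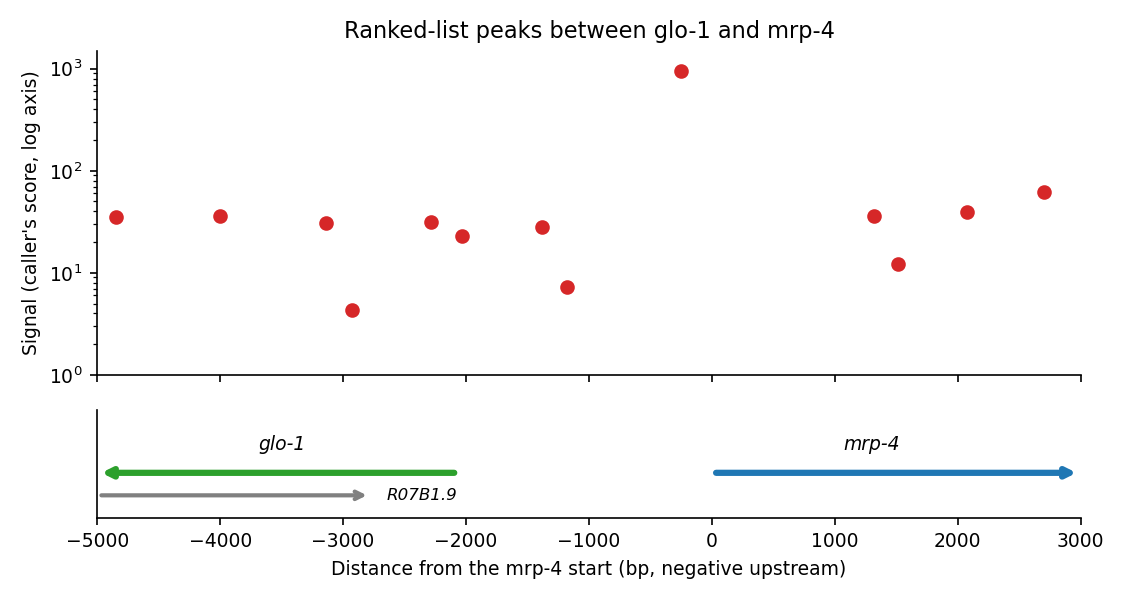
Peaks of the ranked list from both replicates by distance from the mrp-4 start (horizontal, bp) and signal (vertical, log axis), above the genes drawn as arrows in their direction of transcription; R07B1.9 lies within glo-1. The peak at 248 bp upstream, with a signal of 949.6, is far above the others, whose highest signal is 61.7.

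None of the other 7 mrp genes had a main-list summit in its promoter window. The count was 1 of 8 members, against 629 of 19973 protein-coding genes (3.15%) and 35 of 2731 genes on chromosome X (1.28%), where 6 of the 8 members lie. It was also 1 of 8 in each replicate's own thresholded list, where 1.46% of genes had a summit for replicate 1 and 1.7% for replicate 2. Since mrp-4 was picked for this peak, nothing is read from these counts. The distance from a start to the nearest main-list summit was 16496 bp at mrp-5, 22531 bp at mrp-6, 31644 bp at mrp-7, 47714 bp at mrp-3 and 52766 bp at mrp-8.

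The ranked list from both replicates reaches much further down, to 94866 peaks, and all 8 members had a peak of it in the window. So did 75.1% of genes, and the median peak of that list had a signal of 26.7. Apart from mrp-4, the highest signal in a window was 48.8 at mrp-6, followed by 37.6 at mrp-3 and 32.5 at mrp-5. Then came mrp-7 (24.3), mrp-2 (23.7), mrp-8 (22.6) and mrp-1 (18.9), the heavy metal resistance gene. Among genes with a peak of this list in the window the median of such values was 35.3. Thus mrp-6 and mrp-3 stood above that median and mrp-5, the heme exporter gene, slightly below it, with the other 4 lower still. As percentiles of all genes these were 83.8 for mrp-6, 67 for mrp-3, 56.9 for mrp-5, 40.5 for mrp-7, 39.6 for mrp-2, 37.7 for mrp-8 and 32.4 for mrp-1.

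**Figure D3:**
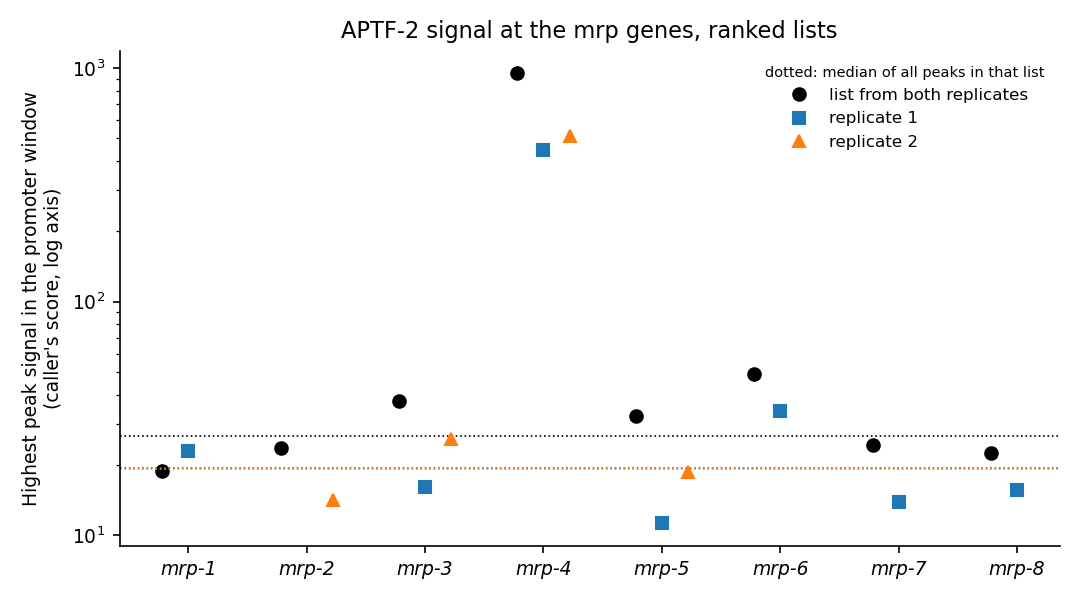
Highest signal of a ranked-list peak in the promoter window of each mrp gene (vertical, caller's score, log axis) in the list from both replicates (circles), replicate 1 (squares) and replicate 2 (triangles); dotted lines mark the median peak of each list, and a missing symbol means that no peak was listed. Only at mrp-4 are all 3 values above 400, while the other 7 genes lie between 11.3 and 48.8.

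These weaker peaks had low IDR scores. The score was 111 at mrp-3, 82 at mrp-5 and 68 at mrp-6, and 31 at the remaining 4, the lowest value in the list, which 44.8% of its peaks share. Main-list peaks had scores of 830 or more. Between mrp-4 at 1000 and mrp-3 at 111, no promoter peak of a member came near that limit on either side.

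The replicates bear differently on these weaker peaks. In the replicates' own ranked lists, of 54777 and 51529 peaks, 57.1% and 55.1% of genes had a peak in the window and 38.8% had one in both. Of the members, 3 had one in both, 4 in replicate 1 alone and 1 in replicate 2 alone. At mrp-6, the strongest of the 7, replicate 1 listed a signal of 34.2, 308 bp upstream, and replicate 2 listed no peak in the window. Likewise mrp-1 (22.9), mrp-8 (15.7) and mrp-7 (13.8) were listed in replicate 1 alone. Conversely mrp-2 was listed in replicate 2 alone (14.2). At mrp-8 the replicate 1 peak, 614 bp upstream, did not overlap the peak of the list from both replicates, 207 bp upstream. Neither replicate's own ranked list held a peak at that place. At mrp-3 the signals were 16.1 and 25.9, from peaks that overlapped by 182 bp with summits 94 bp apart. At mrp-5 they were 11.3 and 18.7, but the peaks did not overlap: the summit was 17 bp downstream of the start in replicate 1 and 305 bp upstream in replicate 2. Beside mrp-4, mrp-3 was thus the member whose highest peaks in the replicates covered shared bases. A gene without a listed peak may still have signal below what the caller kept.

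**Figure D4:**
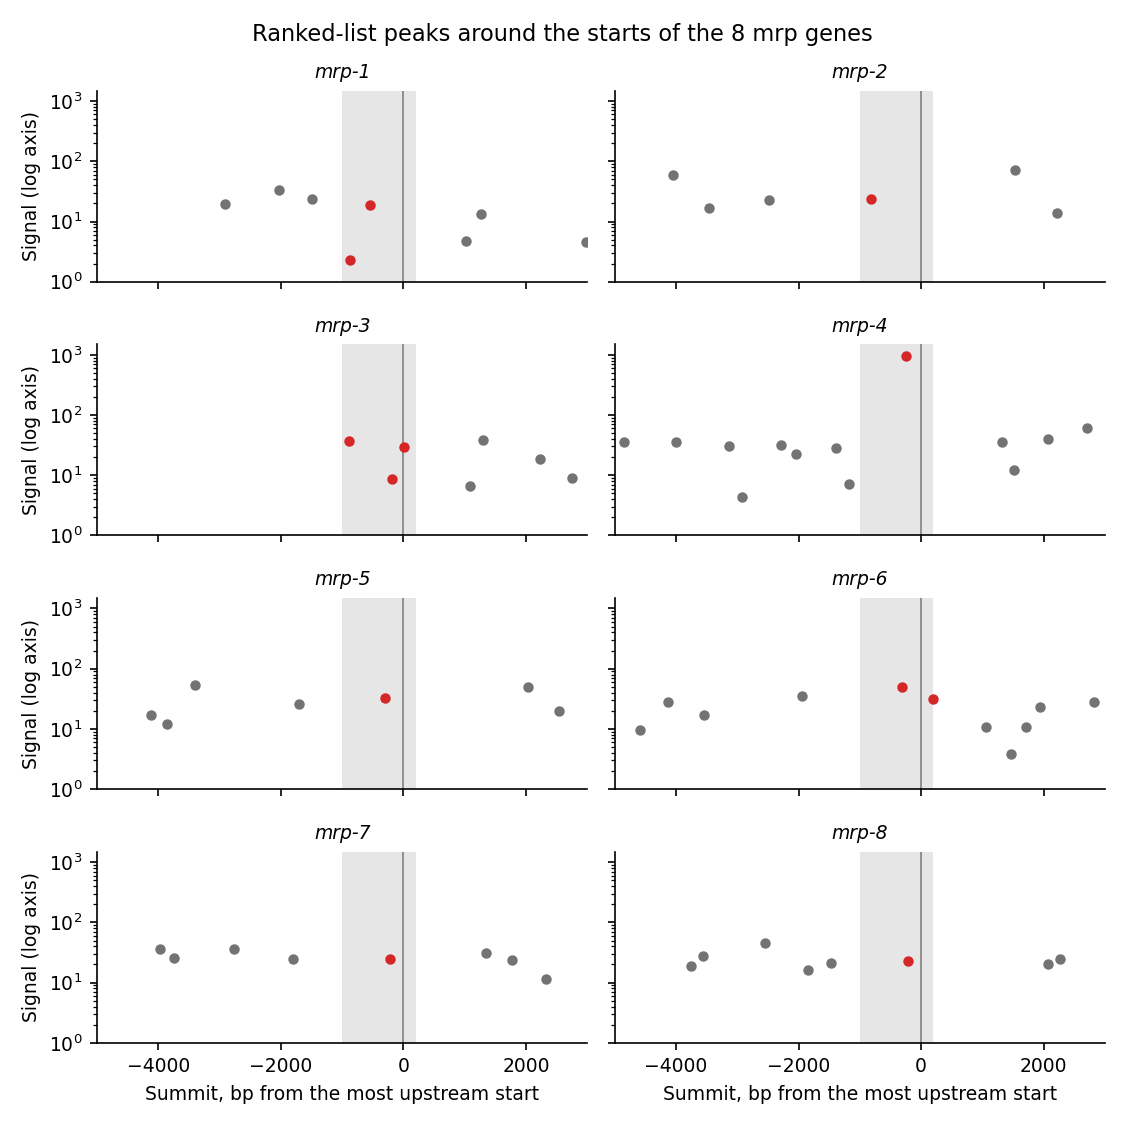
Peaks of the ranked list from both replicates around the 8 mrp genes, by distance of the summit from the most upstream start (horizontal, bp) and signal (vertical, log axis); the grey band is the window from 1000 bp upstream to 200 bp downstream of that start, and red points are peaks in the window of any start of the gene. In the window mrp-4 has 1 peak, of signal 949.6, and mrp-3 has 3, the highest 37.6.

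The members differed in where their highest promoter peak lay. It was 207 bp upstream of the start at mrp-8, 214 bp at mrp-7, 248 bp at mrp-4, 296 bp at mrp-5 and 304 bp at mrp-6. Those of mrp-1 (548 bp), mrp-2 (822 bp) and mrp-3 (887 bp) were farther away. At mrp-6 a second peak, of signal 31.1, lay 200 bp downstream of the start, at the very edge of the window. G and C made up 29.4% of the 201 bp around the highest ranked summit at mrp-1, 31.8% at mrp-8, 33.3% at mrp-7, 37.3% at mrp-6, 41.3% at mrp-2 and mrp-5, and 41.8% at mrp-3. All 7 were below the 48.3% of mrp-4 and the median of main-list windows. Of promoter windows, 84.8% had a lower share than mrp-3, 83.3% than mrp-2 and mrp-5, and 67.2% than mrp-6. For mrp-7, mrp-8 and mrp-1 this was 44.8%, 35.4% and 20.9%. None of the 7 windows held GAGAGA, which stood in 14% of promoter windows. The GATA motif, found in 38.7% of promoter windows, stood in those of mrp-3, mrp-5 and mrp-6, with its intestinal form at mrp-5. The PHA-4 motif, found in 50.1% of promoter windows, stood in those of mrp-1, mrp-2 and mrp-3. The KLF motif (3.98%) stood in that of mrp-3 and the E2F motif (3.62%) in that of mrp-7, while the mrp-8 window held none of the 10. The promoter windows behind these shares lay at the distance of the mrp-4 summit, 248 bp upstream. Those of mrp-1, mrp-2 and mrp-3 lay farther upstream, so the shares are not matched to them in position. Each of the 8 windows was a single copy in the genome. For comparison with the mrp-4 peak, the 101 bp around the highest ranked summits of mrp-6 (chrX:4187010-4187110) and mrp-3 (chrX:15940161-15940261) follow, on the plus strand, with matches to the motifs in capitals, a GATA site on the minus strand at mrp-6 and a PHA-4 motif at mrp-3.

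mrp-6: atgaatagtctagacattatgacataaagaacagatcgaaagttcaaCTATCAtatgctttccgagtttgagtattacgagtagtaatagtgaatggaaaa

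mrp-3: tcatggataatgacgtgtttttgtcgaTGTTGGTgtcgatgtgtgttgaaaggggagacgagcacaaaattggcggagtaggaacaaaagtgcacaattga

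Inside the genes, 1 member carried a main-list summit. It lay in intron 5 of mrp-2, 3025 bp downstream of the start, at chrX:569528-569823, with a signal of 78.8 (place 777 of 892) and an IDR score of 933. Of all protein-coding genes, 278 (1.39%) held a main-list summit within their span. Neither replicate's thresholded list held a peak within mrp-2, but both ranked lists did at this place, with signals of 40.4 and 43.9 and summits at 569630 and 569678. The IDR scores there were 162 and 443, below the limit of the thresholded lists. The intron peak overlapped no annotated gene other than mrp-2. The gene mrp-1 lies upstream of mrp-2 on the same strand, with 3610 bp between them, and its start was 17807 bp from this summit. In the other 7 genes the highest ranked peak inside the gene had a signal from 42.7 (mrp-3) to 62.6 (mrp-7). Over all ranked peaks inside the 8 genes, the intron peak, at 933, was the only one at or above the limit of 830. The next IDR score, 749, also belonged to mrp-2, at a peak of signal 72.1 in a coding exon 1536 bp downstream of the start, and the one after it was 485, at mrp-8.

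The 201 bp around the intron summit (chrX:569576-569776, plus strand) are shown because this is the only main-list site of the family beside mrp-4. Of these bases 56.2% were G or C, and of the 10 motifs 1 was found, the E2F motif, in capitals, 86 bp after the summit.

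mrp-2: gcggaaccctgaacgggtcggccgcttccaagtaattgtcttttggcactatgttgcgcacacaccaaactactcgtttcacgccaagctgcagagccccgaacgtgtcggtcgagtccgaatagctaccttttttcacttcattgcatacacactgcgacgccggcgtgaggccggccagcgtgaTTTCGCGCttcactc

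The wider ABC superfamily was described from a list of 54 further symbols, of which 49 matched the annotation. A main-list summit stood in the window of 1 of the 49 (2.04%, against 3.15% of all genes), abcf-2, whose relatives in yeast and mammals are cytosolic proteins that act with ribosomes and span no membrane. Its peak, chrIII:13463000-13463295, had a joint signal of 161, with 80.9 for replicate 1 and 81.4 for replicate 2. The summit was 910 bp upstream of abcf-2, but 15 bp upstream of ant-1.1, a gene for a mitochondrial ADP/ATP carrier, and 564 bp upstream of T27E9.2, so the peak cannot be assigned to abcf-2 alone. Ranked peaks occurred in the windows of 37 of the 49 genes (75.5%, against 75.1% of all genes). Their median highest signal was 33.3, against 35.3 over all genes with a ranked peak. The highest without a main-list summit were abcf-1 (76.3, replicates 32.6 and 40), pgp-14 (59.7, replicates 32.9 and 25.7) and pmp-1 (49.4, in replicate 1 with 44.2 and not listed in replicate 2). By family, the median was 28.9 over the 8 P-glycoprotein (pgp) genes of 14 with a ranked peak and 36.7 over 7 of 8 half-transporter (haf) genes. It was 42.5 over 7 of 8 wht genes and 39.8 over all 5 pmp genes, whose relatives in other species act in peroxisomes. The single gene named for the cystic fibrosis channel, cft-1, had 17. No gene of this list other than abcf-2 exceeded 76.3.

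**Figure D5:**
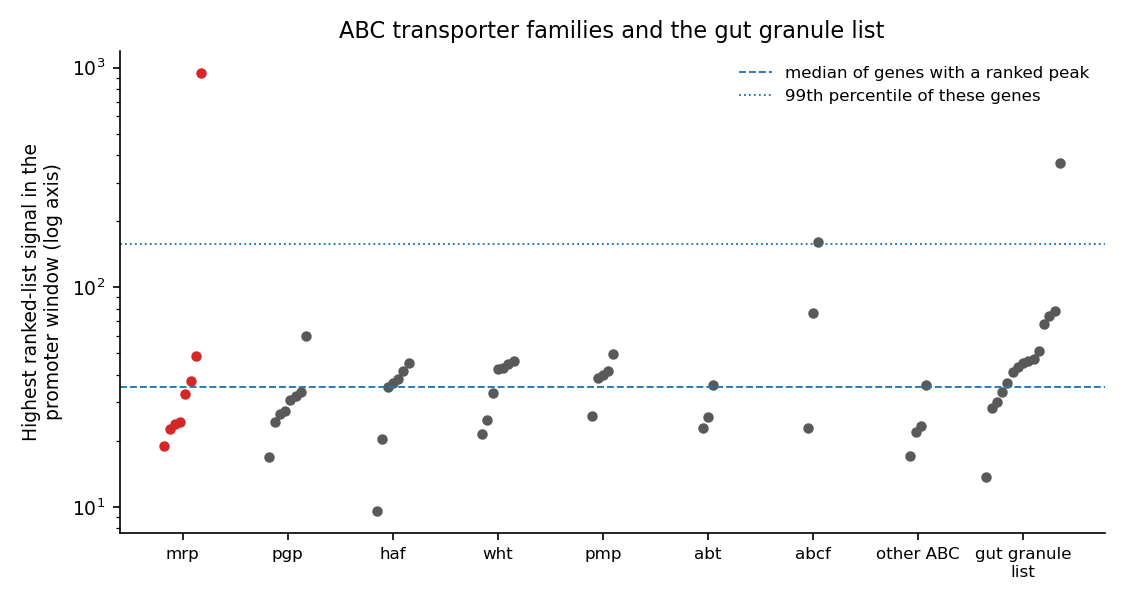
Highest signal of a ranked-list peak (list from both replicates) in the promoter window of each gene (points; vertical, caller's score, log axis), by ABC family and for the gut granule list; genes without a ranked peak are not drawn, and lines mark the median (35.3) and the 99th percentile (157.6) over all genes with a ranked peak. In the ABC families 2 points lie above the upper line, mrp-4 at 949.6 and abcf-2 at 161.

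Because mrp-4 is known for the gut granule, a list of 20 symbols drawn up for that organelle was described too. Of these, 18 matched, and pgp-2, haf-4, haf-9 and wht-2 belong to the ABC list as well. A main-list summit stood in the window of 1 of the 18 (5.56%, against 3.15% of all genes). This was vps-39, a subunit of a complex that tethers membranes to lysosomes, with a joint signal of 366, and 184 and 181 in the replicates' own lists. Its summit, 516 bp upstream, lies in sequence with 20 similar copies in the genome, itself included, so reads there may come from several places. Of the 18 genes, 15 (83.3%, against 75.1% of all genes) had a ranked peak. Their median highest signal was 45.1, against 35.3 over all genes with a ranked peak. The next highest were the lysosomal membrane protein gene lmp-1 (78.1, replicates 43.5 and 32.4) and the phosphoinositide kinase gene ppk-3 (73.8, replicates 40.9 and 29). Then came vps-33.1 (68.2, replicates 33.9 and 32.2), another tethering subunit. The granule genes glo-3 and glo-4 had 43.4 and 33.2. None of pgp-2, glo-2 and vps-11 had a ranked peak in its window. The ABC transporter genes of this list with a ranked peak, haf-4 (45.1), haf-9 (36.7) and wht-2 (46), lay at or below 46 in their windows, against 949.6 at mrp-4. Outside its window, haf-9 was the nearest start to a main-list summit within 2000 bp.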

How the data were processed

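Peak lists on ce11 were deposited, made by the authors from 1 replicate's alignments or both, per the README texts among the files; the sources used here do not give the caller or aligner. Those texts name, for thresholded lists, an additional source file of unstated content, so what it did to them is unknown. Each deposited peak has a signal (a score on a scale not stated), an IDR score of at most 1000 and a −log10 q value; ranked lists add the global IDR on the −log10 scale. Depth of the replicates is unknown, as no reads were counted. The control library was not analysed here. The main list is the thresholded list named conservative; each ranked list holds 2 further signal columns for the paired lists, 8 columns in all, which were not used because they carry no sample name.

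Genes came from Ensembl release 115 and bases from the RefSeq genome, both WBcel235, which is ce11; all peak ends fell within the 6 chromosomes. The window for a gene spanned 1000 bp before and 200 bp after each protein-coding start, and the summit had to fall in it. A percentile is the share of all genes with a lower highest signal in the window, genes without a peak lowest. Motifs were searched on both strands of 201 bp windows. Copies were BLAST matches with an identity of at least 90% over at least 100 bp. The counting was tested on simulated peaks. Python 3.11.15, NumPy 2.4.6, pandas 2.3.3, matplotlib 3.10.9 and BLAST 2.17.0 were used. The members and lists were chosen with earlier results of these data known, so no test was run. Named were the 8 members, listed and the 3 next highest genes of each list, the 3 genes most like mrp-4 and genes that share a named summit. Alternatives were other lists, each replicate alone, windows, peak overlap, nearest start, the stronger 50% of peaks and other motif windows.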

Additional observations from a re-analysis of the deposited data

How the results depend on the processing

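The count was 1 mrp gene, mrp-4, in the other thresholded list, each replicate alone, both other windows, peak overlap, nearest start and stronger 50% of peaks. Since mrp-4 was picked for this peak, its own place in the count is no support. The stronger 50% of peaks and the shorter window had to keep it and could add no member. The other thresholded list holds the same mrp-4 peak. The settings that could have added another member added none. The first place of mrp-4 by signal held in the other thresholded list and in each replicate; by IDR score or q value it shared first place, with 599 and 23 peaks at the top, itself included. With 50 or 150 bp on each side and at the summits of both replicates, GAGAGA was the only motif of the 10 found. Its matches began 10 bp before and 7 bp after the summit, and the replicate summits were 12 bp apart. All these windows therefore had to contain it. The longer and the shifted windows could have added another motif and did not.

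Of the other ABC genes, 0 were counted with a window of 500 bp upstream to 100 bp downstream, and with the nearest start the gene was haf-9 in place of abcf-2. Of the gut granule genes, for which the alternatives were added after the data were seen, 0 were counted in that window. There were 2 with the window of 2000 bp upstream, where the mrp-4 summit also counts for glo-1, and 2 with the nearest start (haf-9 and vps-39).

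The median percentile of the members other than mrp-4 depended on the setting: 40.5 in the report, 40.7 in the other ranked list, 68.7 over the 5 listed with the shorter window and 24.9 with the longer. With replicates left out it ran from 53.1, over 6 members, to 63.3, over 3. Members without a listed peak were left out of these medians, while all genes without a peak ranked lowest. In the replicates' lists 57.1% and 55.1% of genes had a peak, against 75.1% in the list from both. The lowest percentile a listed gene can take is thus higher there, and the settings are not directly comparable. The medians of the shorter window and of single replicates rest on fewer members, but that of the longer window rests on all 7, as the main value does. No paired analysis was possible because there is 1 group.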

Other observations

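In the ranked lists mrp-4 was not first. The list from both replicates held 1 stronger peak, chrX:15810950-15811171, with a signal of 2409 against 949.6 at mrp-4, 6936 bp upstream of the nearest protein-coding start, that of Y7A5A.7. It was also first in replicate 1 (1323) and replicate 2 (1246). Replicate 1 held 2 more above mrp-4, with signals of 622 and 452, at chrV:16708859-16709113 and chrV:16708462-16708595, 2336 and 1887 bp upstream of clec-9, a C-type lectin gene. None of these 3 places was in any of the 4 thresholded lists, although the IDR score was 1000 at each; the thresholded lists were made with an additional file of unstated content, and its part in this was not tested. Their windows had 304, 226 and 118 similar copies in the genome, themselves included, whereas the mrp-4 window had 1, itself. Thus the first place of mrp-4 holds for the thresholded lists, and in the ranked list from both replicates its peak was second.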
